A study of Homo sapiens with 6 samples.

Results

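The genes examined here are NFE2L2, which encodes the transcription factor NRF2, and 9 of its best known targets in the defence against oxidants and electrophiles: GCLC, GCLM, SLC7A11, TXNRD1, SRXN1, NQO1, HMOX1, AKR1C1 and AKR1B10. They were chosen by name as a pathway, with earlier results of these data known. They were matched by GENCODE symbol to the Ensembl identifiers of the count table, where all 10 were found among 58884 genes. RNA-seq was performed in 3 libraries of DLD1 parental cells and 3 libraries of p85β K477A/R478A mutant cells (p85β KR-AA cells). DLD1 is a colorectal cancer cell line with a PIK3CA helical domain mutation, which both groups carry, and the K477A and R478A changes were knocked into PIK3R2, the gene for the PI3K regulatory subunit p85β, at its nuclear localization sequence. The libraries answer how the NRF2 genes differ between cells with the unchanged and the changed localization sequence.

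The source field of mutant replicates 2 and 3 reads R479A and R480A, whereas their titles and genotype read R478A like those of replicate 1. The labels name no clone for a library, although the study derived mutant cells as clones, and they do not say whether the replicates were separate cultures, so that p-values measure the spread between these libraries only. A difference between a clone and the parental line cannot be told apart from one due to the knock-in. No treatment is given for either group.

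In unstressed cells, NRF2 is bound by KEAP1, an adaptor of a CUL3 ubiquitin ligase, and is degraded. Oxidants and electrophiles modify cysteines of KEAP1, NRF2 then accumulates, pairs with a small MAF protein and binds the antioxidant response element, a short DNA motif that the repressor BACH1 also occupies. The control lies largely in the stability of the protein, which counts of RNA do not measure.

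The core of this element, 4 fixed bases (TGAC), any 3 bases and then GC, was looked for on both strands of the RefSeq promoter windows of GRCh38.p14, which run from 250 bases before a gene's start to 50 bases after it. Of the 10 genes, 7 had a window in that table, and HMOX1, SLC7A11 and AKR1B10 had none. A match was found for GCLM and TXNRD1, or 28.6% of the genes with a window, against 16.1% of 27305 genes in all. The matches are shown because this motif is the binding site that defines the pathway. Each is written 5′ to 3′ on the strand that reads the motif, with the motif in capitals.
GCLM (chr1:93909448-93909472, minus strand gene, motif on the opposite strand): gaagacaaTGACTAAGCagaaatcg
TXNRD1 (chr12:104215672-104215696, plus strand gene, motif on the same strand): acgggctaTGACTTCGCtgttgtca
TXNRD1 (chr12:104286922-104286946, plus strand gene, motif on the opposite strand): agtcagaaTGACAAAGCagaaatcc
A further match of TXNRD1 lay 8 bases before one of its starts. A match is a description of letters and not a bound site. Below, TXNRD1 was among the genes called and GCLM was not. Among genes of the 10 and of the wider list described further on, 6 of 20 up-regulated genes with a window, 7 of 13 down-regulated genes and 10 of 27 genes that were neither held a match.

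The deposited values are estimated counts per gene. The library totals ran from 20301932 to 20873475 for parental cells and from 20301396 to 26712816 for the mutant cells, with n = 3 in each group throughout. The groups differed across the transcriptome. Of 16059 genes tested, 28.6% were called up-regulated and 17.6% down-regulated in the mutant, which required a difference of 3-fold or more with adjusted p below 0.01 (edgeR quasi-likelihood test, Benjamini-Hochberg adjustment), and these shares are the background for each count below. Levels are given as CPM, counts relative to the library size after TMM scaling, which centres the libraries on the bulk of their genes. Up-regulated genes made up 61.9% of the calls. With scaling by library totals alone they made up 87.9%, and the median gene moved on the log2 scale from 0.32 to 1.241. Without offsets, genes near the length of SLC7A11 had a median of 2.31 on the log2 scale and those near that of AKR1B10 one of -0.59. With offsets for gene length, up-regulated genes made up 47.3% of the calls.

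The labelled tissue was checked with marker genes. Of 16 markers of colon epithelium, 15 exceeded 1 CPM in every parental library and 13 in every p85β KR-AA library, whereas CDX1 had at most 3 counts in any library. Their summed level was 58828 to 81025 CPM in parental and 9224 to 10769 CPM in p85β KR-AA libraries, and 9 of them were down-regulated, KRT8, KRT18 and KRT19 included. The cadherin genes CDH1 and CDH17 of the same list were up-regulated, by 1.82 and 2.104 on the log2 scale. Of 16 fibroblast or mesenchymal markers, 11 were tested and 7 were up-regulated, with mutant levels (SD, n = 3) of 1772 ± 70.1 CPM for VIM and 4992 ± 408 CPM for FN1. The summed level of that list was 124 to 142 CPM in parental and 6521 to 7457 CPM in p85β KR-AA libraries. Of that list COL3A1, DCN, LUM, PDGFRA and ZEB1 had no count in any parental library, and COL1A2, PDGFRA and TWIST1 had none in any p85β KR-AA library. Among the up-regulated genes, VIM, COL3A1, DCN, LUM, ZEB1 and CDH2 passed the filter on low counts only through the p85β KR-AA libraries. A call in the other direction was thus hardly possible for them. Of 12 neuron markers, 6 were tested and 5 were up-regulated, of which GAP43, NEFL and NEFM had no parental count. These 5, MAP2 and SYT1 included, also passed that filter only through the p85β KR-AA libraries. TUBB3, the most abundant of that list in both groups, went from 561 to 211 CPM. The summed level of the neuron list was 521 to 609 CPM in parental and 349 to 370 CPM in p85β KR-AA libraries. Only 3 of 10 blood and 2 of 14 hepatocyte markers were tested, and none was called in either direction. In bulk RNA, fewer cells of a type and less RNA per cell cannot be told apart. The epithelial and mesenchymal lists differed between the same groups as the NRF2 genes, and their part in the results below was not tested.

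Of the 10 NRF2 genes, 5 were up-regulated in p85β KR-AA cells and none was down-regulated, against 28.6% and 17.6% of all genes. The up-regulated genes were NFE2L2 itself, the cystine transporter gene SLC7A11, the thioredoxin reductase gene TXNRD1 and the aldo-keto reductase genes AKR1C1 and AKR1B10. At an adjusted p-value under 0.01 with no fold threshold, 8 were higher and 1, HMOX1, was lower, against 41.6% and 32.7% of all genes. In 8 of the 10 genes every p85β KR-AA library lay above every parental library, as in 47.0% of all genes tested, in HMOX1 every one lay below, as in 36.5% of all genes, and in NQO1 the groups overlapped. The median log2 fold change of the 10 genes was 2.15, against 0.32 over all genes tested, and the values ranged from -0.89 to 7.88. Because the genes were chosen with earlier results of these data known, these comparisons are descriptions only. AKR1C1 passed the filter on low counts only through the p85β KR-AA libraries. The other 9 genes had at least 10 counts in every library.

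**Figure D1:**
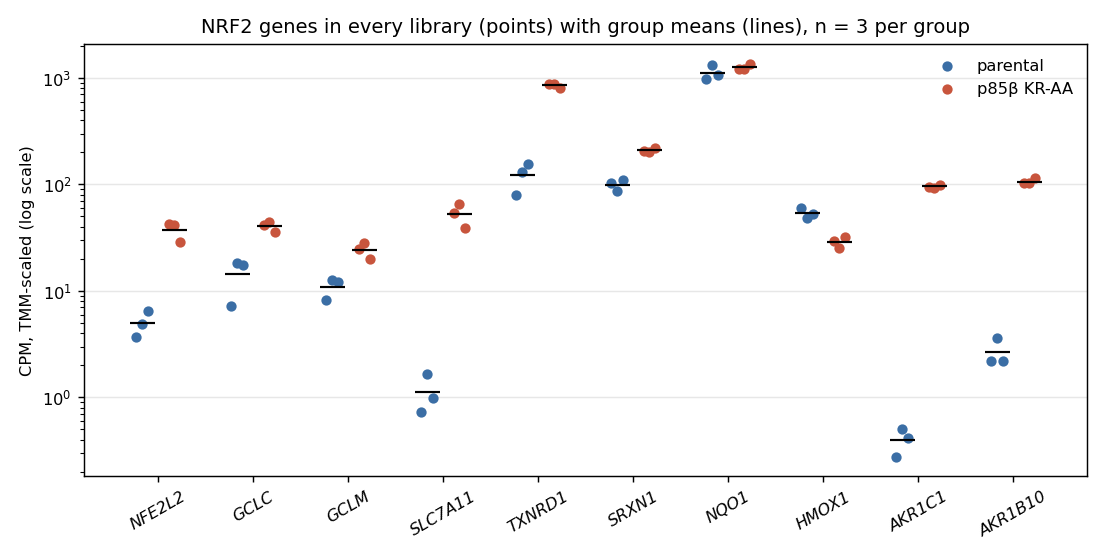
The 10 NRF2 genes on the x axis and their TMM-scaled CPM on a logarithmic y axis. Points are the 3 parental (blue) and 3 p85β KR-AA (red) libraries and lines are group means. The groups are far apart for AKR1C1, AKR1B10 and SLC7A11, overlap for NQO1, and are in the opposite order for HMOX1.

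NFE2L2 (ENSG00000116044, chromosome 2, minus strand, 178083395 to 178257484 of GRCh37) had parental estimated counts of 56, 67 and 105 and mutant estimated counts of 1553, 1182 and 798. All p85β KR-AA values were above all parental ones. Its level rose from 5.02 ± 1.38 to 37.5 ± 7.35 CPM (SD, n = 3), 7.44-fold, or 2.90 ± 0.23 (SE) on the log2 scale (edgeR quasi-likelihood adjusted p = 1.39e-07). With any single library left out the log2 fold change stayed between 2.71 and 3.09. Of the 3929 tested genes from 0.8 to 1.25 times its length of 2446 bases, 20.4% were up-regulated, with a median log2 fold change of -0.037. With length and GC offsets its log2 fold change was 1.64. The annotated span of NFE2L2 overlaps HNRNPA3 and AGPS on the opposite strand, which had means of 3950 and 285 counts in parental and 9405 and 1364 in p85β KR-AA libraries. How the counting dealt with shared reads is not given in the sources used here.

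The genes whose log2 CPM over the 6 libraries was most like that of NFE2L2 were RBM47, OSBPL9 and SEPTIN2 (Pearson's r of 0.99977, 0.99968 and 0.99961). A correlation above 0.95 was found for 4597 of the tested genes. The 6 points share their libraries and form a parental and a mutant group, so that these values describe the contrast between the groups.

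The genes of glutathione synthesis did not move by the same amount. SLC7A11 encodes the subunit of the cystine/glutamate exchanger that imports the cystine needed for glutathione. SLC7A11 (ENSG00000151012, chromosome 4, minus strand, 139085251 to 139163503) had 11, 23 and 16 counts in parental libraries and 1990, 1890 and 1069 in p85β KR-AA libraries. It rose from 1.13 ± 0.488 to 53.0 ± 13.5 CPM (SD, n = 3), 47.3-fold, or 5.56 ± 0.30 (SE) on the log2 scale (edgeR quasi-likelihood adjusted p = 7.61e-09). It is the longest of the 10 genes, at 9645 bases, and 64.2% of 857 genes of similar length were up-regulated, with a median log2 fold change of 2.31. With length and GC offsets its log2 fold change was 2.77 and it was still called.

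GCLC and GCLM encode the catalytic and the modifier subunit of glutamate-cysteine ligase, the rate-limiting enzyme of glutathione synthesis. GCLC (ENSG00000001084, chromosome 6, 53362139 to 53481768) had 108, 252 and 286 counts in parental libraries and 1540, 1278 and 974 in p85β KR-AA libraries. Parental replicate 1 stood below the other parental libraries, at 7.17 CPM against 18.4 and 17.6 CPM, and the groups did not overlap. The means were 14.4 ± 6.26 and 40.7 ± 4.66 CPM (SD, n = 3), 2.83-fold apart, or 1.499 ± 0.28 (SE) on the log2 scale (edgeR quasi-likelihood adjusted p = 2.46e-04), just under the fold threshold. It passed that threshold without parental replicate 2 (1.69), without parental replicate 3 (1.64) and without p85β KR-AA replicate 3 (1.59), and was 1.17 without parental replicate 1. GCLC also passed it with library totals (2.43) and with a filter of at least 10 counts in every library (1.70). With length and GC offsets it was 0.39 (edgeR quasi-likelihood adjusted p = 0.091).

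GCLM (ENSG00000023909, chromosome 1, 94350755 to 94375012) had 125, 173 and 195 counts in parental libraries and 912, 817 and 548 in p85β KR-AA libraries. Its means were 10.98 ± 2.33 and 24.4 ± 4.26 CPM (SD, n = 3), 2.23-fold apart, or 1.15 ± 0.20 (SE) on the log2 scale (edgeR quasi-likelihood adjusted p = 1.77e-04). The groups did not overlap, but genes of its length of 4883 bases had a median of 1.241 on the log2 scale, and 42.7% were up-regulated. With length offsets the direction of GCLM turned, to -0.12, and with length and GC offsets it was -0.96.

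TXNRD1 encodes the cytosolic thioredoxin reductase, a selenoprotein that returns oxidized thioredoxin to its active form, and SRXN1 encodes sulfiredoxin, which repairs over-oxidized peroxiredoxins. TXNRD1 (ENSG00000198431, chromosome 12, 104609557 to 104744085) had 1205, 1799 and 2532 counts in parental libraries and 32015, 25147 and 22074 in p85β KR-AA libraries. The p85β KR-AA values lay close together and far above the parental ones. Its level rose from 122 ± 38.8 to 851 ± 40.5 CPM (SD, n = 3), 6.95-fold, or 2.80 ± 0.21 (SE) on the log2 scale (edgeR quasi-likelihood adjusted p = 7.58e-08). With length and GC offsets its log2 fold change of 1.21 was under the fold threshold. SRXN1 (ENSG00000271303, chromosome 20, 627259 to 633844) had 1549, 1192 and 1773 counts in parental and 7478, 5774 and 6026 in p85β KR-AA libraries. Its means of 99.7 ± 11.6 and 208 ± 9.96 CPM (SD, n = 3) differed 2.09-fold, or 1.06 ± 0.13 (SE) on the log2 scale (edgeR quasi-likelihood adjusted p = 7.11e-06), below the fold threshold and without overlap of the groups. With offsets SRXN1 was at 0.85 for length and 0.87 for length and GC content.

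NQO1 and HMOX1, both widely used as markers of NRF2 activity, were not called. NQO1 encodes a quinone reductase and was the most abundant of the 10 genes in both groups. NQO1 (ENSG00000181019, chromosome 16, 69740899 to 69760571) had 14629, 18228 and 17173 counts in parental libraries and 44234, 34866 and 37327 in p85β KR-AA libraries. After scaling, parental levels were 972, 1327 and 1059 CPM and mutant levels 1207, 1214 and 1360 CPM, so that parental replicate 2 lay among the mutant values. The means of 1120 ± 185.3 and 1260 ± 86.6 CPM (SD, n = 3) gave 0.17 ± 0.14 (SE) on the log2 scale (edgeR quasi-likelihood adjusted p = 0.27). With scaling by library totals it was 1.10, which was 0.14 below the median gene under that scaling, and with length and GC offsets the direction turned, to -0.97.

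HMOX1 encodes heme oxygenase 1, which opens the heme ring and frees iron. HMOX1 (ENSG00000100292, chromosome 22, 35776354 to 35790207) had 909, 659 and 862 counts in parental libraries and 1089, 722 and 881 in p85β KR-AA libraries. The raw counts overlapped, and after scaling every p85β KR-AA library lay below every parental library. The means were 53.8 ± 6.22 and 29.0 ± 3.54 CPM (SD, n = 3), 0.538 times the parental level, or -0.89 ± 0.15 (SE) on the log2 scale (edgeR quasi-likelihood adjusted p = 1.33e-04). The direction rests on the scaling. With library totals the log2 fold change was 0.026, 1.22 below the median gene, and with length and GC offsets it was 0.26.

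**Figure D2:**
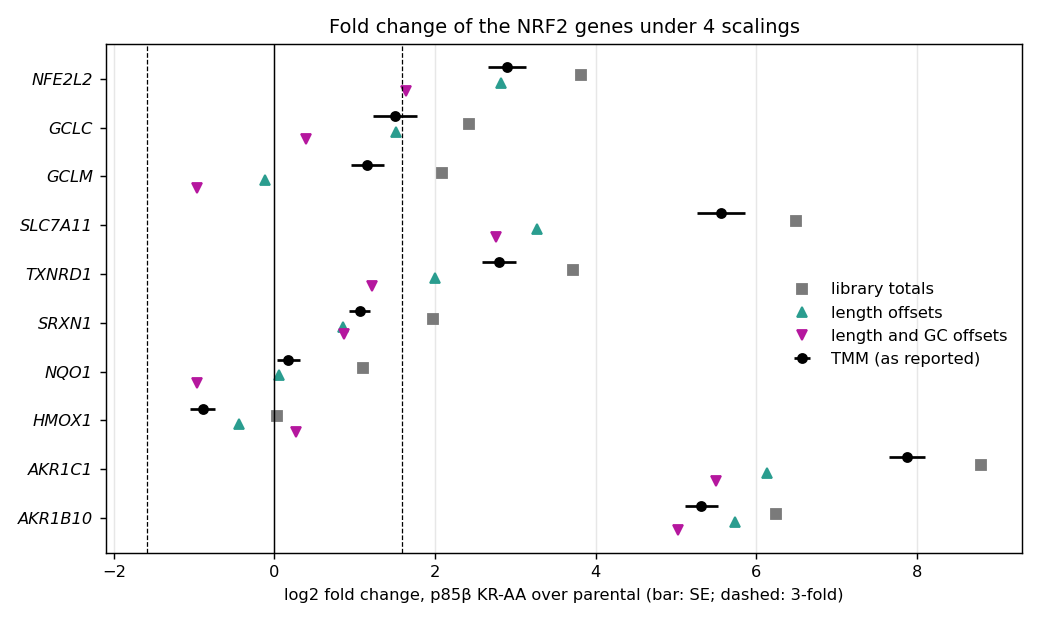
The log2 fold change (x axis, p85β KR-AA over parental) of the 10 NRF2 genes (y axis) with TMM (black, bar of 1 standard error), library totals (grey), length offsets (green) and length and GC offsets (purple), with dashed lines at 3-fold. NFE2L2, SLC7A11, AKR1C1 and AKR1B10 stay above 3-fold in each, GCLM and NQO1 cross 0 with offsets, and HMOX1 crosses 0 with library totals and with length and GC offsets.

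AKR1C1, with the largest fold change of the 10 genes, and AKR1B10 encode aldo-keto reductases, cytosolic enzymes that reduce aldehydes and ketones with NADPH. AKR1C1 (ENSG00000187134, chromosome 10, 5005445 to 5025475), which acts on steroids and other carbonyls, had 4.17, 7 and 6.74 estimated counts in parental libraries and 3492, 2659 and 2732 in p85β KR-AA libraries. The parental values stood just above the level of 3 counts taken as the limit of detection. AKR1C1 rose from 0.401 ± 0.117 to 95.8 ± 3.52 CPM (SD, n = 3), or 7.88 ± 0.22 (SE) on the log2 scale (edgeR quasi-likelihood adjusted p = 7.07e-11). Of 2046 genes near its length, 53.8% were up-regulated, with a median of 1.785 on the log2 scale, and AKR1C1 was at 6.14 with length offsets and at 5.50 with length and GC offsets. AKR1C1 has close copies, so that how reads were split among them is uncertain. AKR1C2 had 3.83, 1 and 3.30 counts in parental and 634, 476 and 572 in p85β KR-AA libraries, AKR1C3 had 35, 37 and 32 against 1556, 1056 and 1030, and AKR1C4 had none in any library. AKR1C1 and AKR1C2 took few of the parental reads of this family, and AKR1C1 held 9.70% to 16.04% of the family's parental counts and 61.5% to 63.5% of its mutant counts. With the counts of AKR1C1 to AKR1C4 summed, the log2 fold change was 5.72, smaller than that of AKR1C1 alone and still called (adjusted p = 8.83e-11, edgeR quasi-likelihood test). The parental part of that sum was mostly AKR1C3. The summed value thus does not show how the split of reads between AKR1C1 and AKR1C2 affected AKR1C1.

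**Figure D3:**
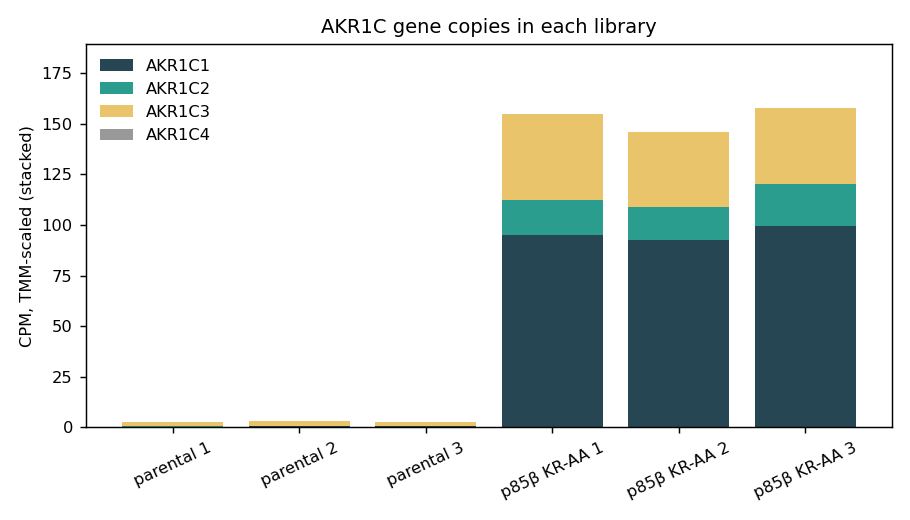
Stacked TMM-scaled CPM (y axis, from 0) of AKR1C1, AKR1C2, AKR1C3 and AKR1C4 in each of the 6 libraries (x axis). The 3 parental bars are close to 0 and mostly AKR1C3, and the 3 p85β KR-AA bars are mostly AKR1C1.

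AKR1B10 (ENSG00000198074, chromosome 7, 134212319 to 134226164), which reduces retinal and other aldehydes, had 33, 50 and 36 counts in parental libraries and 3771, 2933 and 3126 in p85β KR-AA libraries. It rose from 2.68 ± 0.828 to 106 ± 6.60 CPM (SD, n = 3), 39.9-fold, or 5.32 ± 0.20 (SE) on the log2 scale (edgeR quasi-likelihood adjusted p = 9.90e-10). Its copy AKR1B15 had at most 1 count in a parental library and 20.4, 7 and 6 in p85β KR-AA libraries, and AKR1B10 held at least 97.3% of their sum in each library. AKR1B10 is a short gene of 1619 bases, and of 2733 genes of similar length 14.2% were up-regulated and 28.4% down-regulated. With length offsets its log2 fold change was 5.74 and with length and GC offsets 5.03.

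Levels were compared between genes per kilobase of the deposited length (RPKM, from TMM-scaled counts). In parental cells NQO1 stood highest at 444 ± 73.5 RPKM (SD, n = 3), followed by SRXN1, HMOX1 and TXNRD1 at 36.95 ± 4.31, 34.65 ± 4.0 and 31.7 ± 10.1 RPKM, whose libraries overlapped. GCLC followed at 6.29 ± 2.73 RPKM. GCLM, NFE2L2 and AKR1B10 came next at 2.25, 2.05 and 1.66 RPKM with overlapping libraries, and SLC7A11 and AKR1C1 were last at 0.117 and 0.0613 RPKM, also overlapping. In p85β KR-AA cells NQO1 was still highest at 499.9 ± 34.4 RPKM, and TXNRD1 (220.5 ± 10.5), SRXN1 (77.2 ± 3.69) and AKR1B10 (65.7 ± 4.08 RPKM, SD, n = 3 each) followed without overlap between neighbours. HMOX1, GCLC, NFE2L2 and AKR1C1 formed a group from 18.6 to 14.6 RPKM in which neighbours overlapped. SLC7A11 and GCLM were lowest, at 5.50 and 5.004 RPKM, and overlapped. By group mean, AKR1B10 moved from the eighth to the fourth place, and GCLM from the sixth to the last. The parental places of both genes and the last place of GCLM are not resolved, since neighbours overlapped. The level of AKR1C1 depends on its deposited length of 6543 bases, for which the gene model is not stated.

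The RNA of regulators of NRF2 was examined in a list of 13 genes, of which 5 were up-regulated and 2 down-regulated, against 28.6% and 17.6% of all genes. Besides the genes described below, CUL3, the ligase gene named above, and GSK3B rose, with log2 fold changes of 1.71 and 1.75. CUL3 is 6756 bases long, and genes near the 6543 bases of AKR1C1 had a median log2 fold change of 1.785. Values under other scalings or offsets are not given here for CUL3 or GSK3B. KEAP1, the adaptor that brings NRF2 to its ligase, had 4870, 3410 and 4510 counts in parental libraries and 2338, 1714 and 2025 in p85β KR-AA libraries. It fell from 283 ± 37.8 to 65.7 ± 7.26 CPM (SD, n = 3), or -2.11 ± 0.15 (SE) on the log2 scale (edgeR quasi-likelihood adjusted p = 3.87e-08). KEAP1 kept its direction under library totals (-1.19) and under length and GC offsets (-1.08), but was under the fold threshold in both. BACH1, the repressor that competes for the same motif, had 11, 18 and 25 counts in parental and 719, 579 and 371 in p85β KR-AA libraries. It rose from 1.19 ± 0.418 to 17.8 ± 3.69 CPM (SD, n = 3), or 3.89 ± 0.29 (SE) on the log2 scale (edgeR quasi-likelihood adjusted p = 6.77e-08), and was at 1.52 with length and GC offsets, under the fold threshold.

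BACH2, a relative of BACH1, and BTRC, a ligase adaptor that recognizes phosphorylated NRF2, also rose, with log2 fold changes of 1.95 and 1.76. With length and GC offsets both turned direction, to -0.23 and -0.32, and BACH2 lost its call when parental replicate 1, parental replicate 2, p85β KR-AA replicate 1 or p85β KR-AA replicate 2 was left out. With length offsets BTRC was at 0.14. The small MAF gene MAFF fell, with a log2 fold change of -1.71, and was at -0.78 both with library totals and with length and GC offsets, under the fold threshold. Its relative MAFG, a partner of NRF2 on DNA, was at 73.7 ± 15.6 and 64.6 ± 5.0 CPM (SD, n = 3) with overlapping groups, or -0.19 on the log2 scale (edgeR quasi-likelihood adjusted p = 0.29), which was 0.72 with library totals. SQSTM1, whose p62 protein binds KEAP1 and is itself an NRF2 target, went from 966 ± 65.0 CPM in parental to 367 ± 26.1 CPM in mutant cells (SD, n = 3), or -1.40 ± 0.12 (SE) on the log2 scale (edgeR quasi-likelihood adjusted p = 3.55e-07), under the fold threshold. SQSTM1 was past that threshold with length offsets (-1.69, edgeR quasi-likelihood adjusted p = 2.39e-08) and at -0.47 with library totals.

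The wider list held 69 further genes of the pathway, written from textbook knowledge with earlier results of these data known. It pools regulators, KEAP1 and the repressor BACH1 among them, with enzymes and transporters. Its counts and median thus do not measure a response of NRF2 targets. Of these, 67 could be tested, 18 were up-regulated, 16 were down-regulated and 33 were neither, against the background of 28.6% and 17.6%. Their median log2 fold change was -0.16, against 0.32 over all genes tested and 2.15 for the 10 NRF2 genes. The split between directions rests on the scaling, with 24 up-regulated and 3 down-regulated genes under library totals and 11 and 7 under length and GC offsets.

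**Figure D4:**
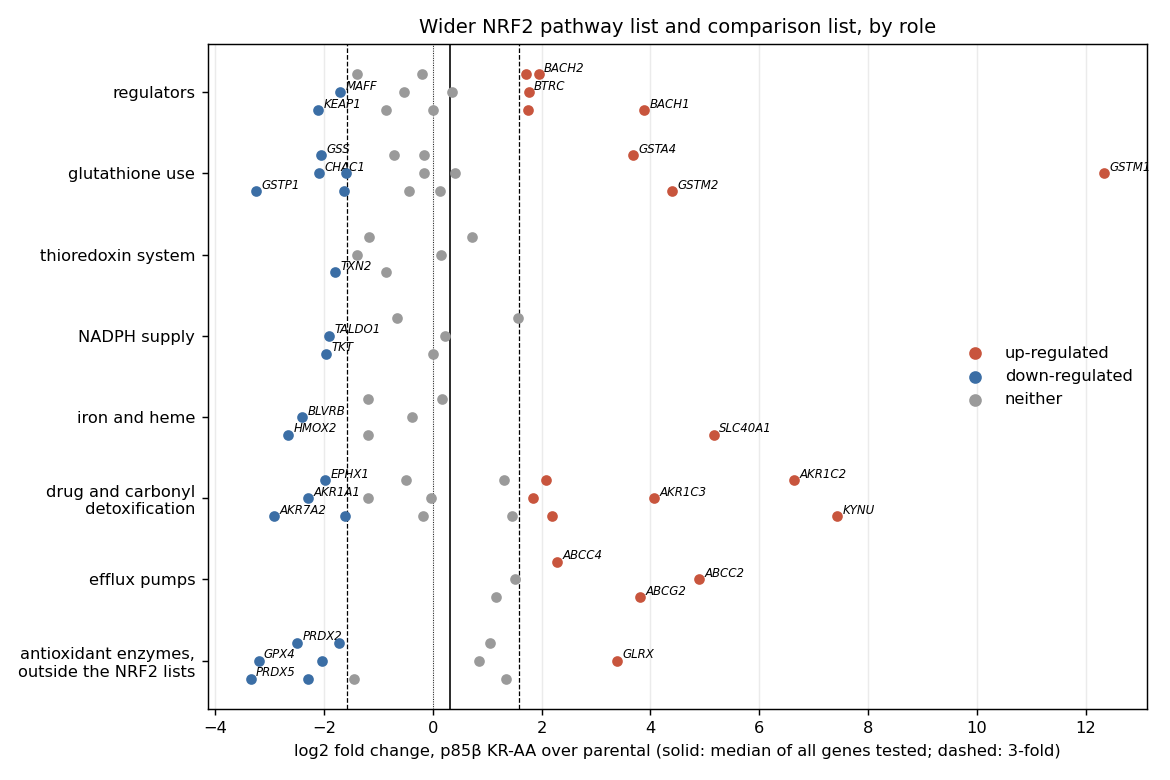
The log2 fold change (x axis, p85β KR-AA over parental) of the tested genes of the wider list and of a comparison list of other antioxidant enzymes, by role (y axis). Red points are up-regulated, blue down-regulated and grey neither, the solid line is the median of all genes tested and the dashed lines mark 3-fold. All 5 efflux pumps lie to the right of the median gene, and most of the other antioxidant enzymes lie to the left. The position of GSTM1, which had no parental count, depends on the prior count of the fit.

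Of 14 genes that use glutathione, 3 were up-regulated and 5 down-regulated. The up-regulated genes were the glutathione S-transferases GSTM1, GSTM2 and GSTA4. GSTM1, a gene that is deleted in many human genomes, had no count in any parental library and 946, 759 and 894 in p85β KR-AA libraries, an increase of at least 129.4-fold over a floor of 3 counts per library. GSTM2 rose from 0.309 ± 0.090 to 6.68 ± 0.794 CPM (SD, n = 3), and GSTA4 had at most 4 counts in a parental library and 85, 63 and 44 in p85β KR-AA libraries. GSTM1, GSTM2 and GSTM4 are close copies, so that the division of reads among them is uncertain. GSTP1, the most abundant transferase here, fell from 3445 ± 820 to 360.3 ± 31.8 CPM (SD, n = 3), or -3.26 ± 0.18 (SE) on the log2 scale (edgeR quasi-likelihood adjusted p = 8.47e-09). CHAC1, which degrades glutathione, and GSS, which carries out the last step of its synthesis, fell with log2 fold changes of -2.09 and -2.06. Under length and GC offsets GSTP1 was at -1.49 and CHAC1 at -0.52, both under the fold threshold, as were CHAC1 (-1.16) and GSS (-1.13) with library totals.

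None of the 6 genes of the thioredoxin system outside the 10 was up-regulated, and TXN2, the mitochondrial thioredoxin, fell with a log2 fold change of -1.79. Of 6 genes that supply NADPH, none was up-regulated and 2 were down-regulated, the pentose phosphate pathway genes TALDO1 (-1.91) and TKT (-1.96). With library totals and with length and GC offsets TXN2, TALDO1 and TKT were under the fold threshold in the same direction. Of 7 genes of iron and heme handling, SLC40A1, the iron exporter ferroportin, was up-regulated from 0, 0 and 3 counts to 107, 87 and 48, at least 11.7-fold. BLVRB, a biliverdin reductase, and HMOX2, the constitutive heme oxygenase, fell with log2 fold changes of -2.40 and -2.67. HMOX2 kept its call under library totals (-1.73) and under length and GC offsets (-1.78), whereas BLVRB did not.

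Of 16 tested genes of drug and carbonyl detoxification, 6 were up-regulated and 4 down-regulated. The largest increase was that of KYNU, which encodes kynureninase of tryptophan breakdown, from 4.56, 1 and 2.94 counts in parental libraries to 1443, 1056 and 835 in p85β KR-AA libraries. Its log2 fold change was 7.44 ± 0.31 (SE, edgeR quasi-likelihood adjusted p = 2.14e-09), but its parental counts were near the floor of 3, and without parental replicate 2 or 1 it was 7.06 or 7.99. AKR1C2 and AKR1C3 followed, with log2 fold changes of 6.64 and 4.06. KYNU and AKR1C2, like GSTM1, GSTM2, GSTA4, SLC40A1, BACH2 and ABCG2, passed the filter on low counts only through the p85β KR-AA libraries. Other aldo-keto reductases went the other way. AKR7A2 fell from 254.7 ± 31.3 to 33.8 ± 0.898 CPM and AKR1A1 from 318 ± 35.5 to 64.6 ± 3.70 CPM (SD, n = 3), with log2 fold changes of -2.91 and -2.30, as did the epoxide hydrolase gene EPHX1 (-1.98). With length and GC offsets AKR7A2 (-1.28), AKR1A1 (-1.14) and EPHX1 (-1.10) were under the fold threshold, as were AKR1A1 (-1.37) and EPHX1 (-1.05) with library totals.

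The efflux pumps export glutathione conjugates and drugs. In all 5 of them every p85β KR-AA library lay above every parental library, as in 47.0% of all genes tested, and 3 were up-regulated. ABCC2 rose from 25, 19 and 58 counts to 2459, 1907 and 1840, or from 2.21 ± 1.195 to 66.8 ± 0.382 CPM (SD, n = 3), or 4.90 ± 0.27 (SE) on the log2 scale (edgeR quasi-likelihood adjusted p = 8.78e-09). ABCG2 and ABCC4 rose with log2 fold changes of 3.81 and 2.29. With 13, 4 and 17 parental counts, ABCG2 passed the filter on low counts only through the p85β KR-AA libraries. A call in the other direction was thus hardly possible for ABCG2. The efflux pump genes are long, of 4206 to 6504 bases. ABCC4 was at 0.025 with length and GC offsets, whereas ABCC2 stayed called at 2.87.

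Antioxidant enzymes outside the NRF2 lists were taken as a comparison. Of 11 tested, 1 was up-regulated and 6 down-regulated, with a median log2 fold change of -1.72. GLRX, the gene for glutaredoxin, rose from 10.3 ± 4.66 to 107 ± 11.4 CPM (SD, n = 3), or 3.38 on the log2 scale (edgeR quasi-likelihood adjusted p = 1.53e-07), and stayed called with length and GC offsets (3.85). GPX4, which protects membranes from lipid peroxides, fell from 1100 ± 140.5 to 119 ± 6.98 CPM (SD, n = 3), or -3.20 on the log2 scale. The peroxiredoxin genes PRDX5 and PRDX2 fell with log2 fold changes of -3.35 and -2.50. These fallen genes are 803 to 925 bases long, and with length and GC offsets GPX4 was at -1.26, PRDX5 at -1.48 and PRDX2 at -0.93, in the same direction and under the fold threshold, as was PRDX2 with library totals (-1.57).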

How the data were processed

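RNA-seq of 3 DLD1 parental and 3 p85β KR-AA libraries was analysed. The values the authors deposited are estimated counts by Ensembl identifier, not normalized, with a gene length as another column whose gene model is not stated. The submitters' processing notes name HISAT2 2.1.0, RSEM 1.3.1, DESeq2 1.24.0 and hg18, without their roles, and the study's methods name trimming with SeqPrep and Sickle. Whether counting used strand is not given in the sources used here.

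Counts were rounded to whole numbers and fitted with edgeR 4.0.16 under R 4.3.3 (low counts removed by filterByExpr at 10 per library and 15 in total, TMM, quasi-likelihood F test, Benjamini-Hochberg adjustment over 16059 genes, no covariate). Calls needed a 3-fold difference or more with adjusted p below 0.01, as in the study's methods. The standard error is the log2 change over the root of F. A count of 3 in a library, taken as the floor, stood for 0.0818 to 0.219 CPM and covers counting error only. Symbols and GRCh37 positions came from GENCODE release 44 lifted to that build, not the build of the notes, and 159 of 160 listed symbols matched (SOD2 did not).

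The alternatives were DESeq2 1.42.0, library totals, no filter, a stricter filter of 10 counts per library, blocking by replicate number, leaving out single libraries, other thresholds, and offsets per library from robust splines with 5 degrees of freedom for length, or length and GC content, which remove any relation with these whatever its source. Named genes were the 10 NRF2 genes, KEAP1, BACH1, MAFG, SQSTM1, the AKR1C and AKR1B copies and, by role, up to 3 genes called in each direction with the largest change. CUL3 and GSK3B were added as the other up-regulated regulators. Members and lists were chosen with earlier results of these data known. The fits were also run on simulated data with far fewer changed genes than were called here, and no result rests on that run.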

Additional observations from a re-analysis of the deposited data

How the results depend on the processing

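Of the 10 NRF2 genes, 5 were up-regulated in most alternatives, 8 with scaling by library totals, 8 with no fold threshold (and 1 down-regulated), 4 with length and GC offsets, and 5 to 6 with each library left out in turn. With at least 10 counts in every library the 5 included GCLC (1.70) and not AKR1C1, which was not tested there. Across all genes, library totals gave 7052 up-regulated and 973 down-regulated genes, at least 10 counts in every library 2898 up-regulated, length offsets 2846 up-regulated, length and GC offsets 2144 up-regulated, and no fold threshold 5246 down-regulated. For the wider list the counts were 11 up-regulated and 7 down-regulated with length and GC offsets, 3 down-regulated with library totals and 28 down-regulated with no fold threshold.

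The direction turned with length and GC offsets for BACH2 (-0.23), BTRC (-0.32), GCLM (-0.96), HMOX1 (0.26), MAFG (0.59) and NQO1 (-0.97). It turned with length offsets for BACH2 (-0.26), GCLM (-0.12) and MAFG (0.14), with library totals for HMOX1 (0.026) and MAFG (0.72), and with at least 10 counts in every library for MAFG (0.0053). The cause was not tested. A replicate block in the model gave 4626 calls up and 2827 down, and the same numbers of NRF2 genes (5 and 0) and wider list genes (18 and 16) were called. The numbers did not pair the libraries, since the correlations of same-numbered libraries' deviations were -0.20, 0.18 and -0.058. The fits with the block and without the filter had infinite prior degrees of freedom, so that their p-values are not given. With 3 libraries a group and 4 to 7 parental counts, the size of the AKR1C1 increase is limited by depth.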
